A study of Mus musculus with 41 samples.

Results

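Myc and 41 genes of ribosome biogenesis were followed in myeloid cells sorted from irradiated and untreated mouse rectal tumours. The 42 members are Myc itself, subunits of RNA polymerase I and nucleolar factors that process and modify ribosomal RNA (rRNA), and they were picked by gene symbol from the 55453 genes that each deposited table lists. All 42 were found and all 42 had an adjusted p-value in each of the 3 comparisons, so none was lost to a filter on low counts. MYC is a transcription factor that binds DNA as a heterodimer with MAX and is known for driving ribosome production in growing cells. In the nucleolus, RNA polymerase I copies the rRNA genes, small nucleolar ribonucleoproteins (snoRNPs) methylate and pseudouridylate the transcript, and separate sets of factors cut and fold it into the small (40S) and large (60S) ribosomal subunits. Ribosome production takes much of the energy of a growing cell and is generally highest in dividing cells.

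The cells came from MC38-luc tumours, a luciferase-carrying mouse colon carcinoma line placed in the rectum of female C57BL6 mice. Irradiated tumours were given 5 daily doses of 5 Gy between day 9 and day 13 after implantation, untreated tumours received none, and both were harvested on day 14. From CD45+ CD11b+ cells the study sorted tumour-associated macrophages (TAM; Ly6C-, Ly6G-, F480+) of 10 irradiated and 5 untreated tumours, inflammatory monocytes (Ly6C+, Ly6G-) of 9 irradiated and 5 untreated tumours, and granulocytes (Ly6C+, Ly6G+) of 7 irradiated and 5 untreated tumours. The model is a single transplanted tumour line, and subsets of 1 tumour share its number. Each deposited table gives, per gene, a mean normalised count over libraries, a log2 fold change of irradiated over untreated, a Wald statistic (effect over its standard error), and p with and without adjustment. Single-library values were not analysed here, so sequencing depth is unknown and a fold is given without SD, SE or per-library values. The mean normalised count is identical in all 3 tables, so it describes no single subset and the sorted cell types could not be checked against their marker levels. A gene is said to have risen or fallen where its deposited adjusted p was under 0.05, with the direction of the Wald statistic. Whether the deposited folds were shrunken towards 0 is not stated. Fold and Wald statistic differ in sign for 320 of the genes tested in TAM, so a fold is not simply the Wald statistic times an error, but for no member do they differ in sign in any comparison.

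In TAM of irradiated tumours, 35 of the 42 members fell and 0 rose, while of all 16851 genes tested 12.5% fell and 13.9% rose. Among the 9023 genes whose mean count lay within the range of the members (74.1 to 3995.4), a background chosen after seeing the data, 18.4% fell. The median log2 fold change of the members was -0.75, against 0.03 over all genes tested, and the median Wald statistic was -4.16, against 0.14. Every one of the 42 had a negative Wald statistic, which 46.9% of all genes tested had. Granulocytes followed with 15 members that fell and 0 that rose, where of 15679 genes tested 9.9% fell (11.3% in the members' count range) and 7.32% rose. Inflammatory monocytes had 4 that fell and 0 that rose, where of 14506 genes tested 1.77% fell (2.25% in the members' count range) and 4.13% rose. All of these counts come from the authors' deposited Wald test. In bulk RNA of sorted cells, fewer cells of an active type and less RNA of a gene per cell cannot be told apart.

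**Figure D1:**
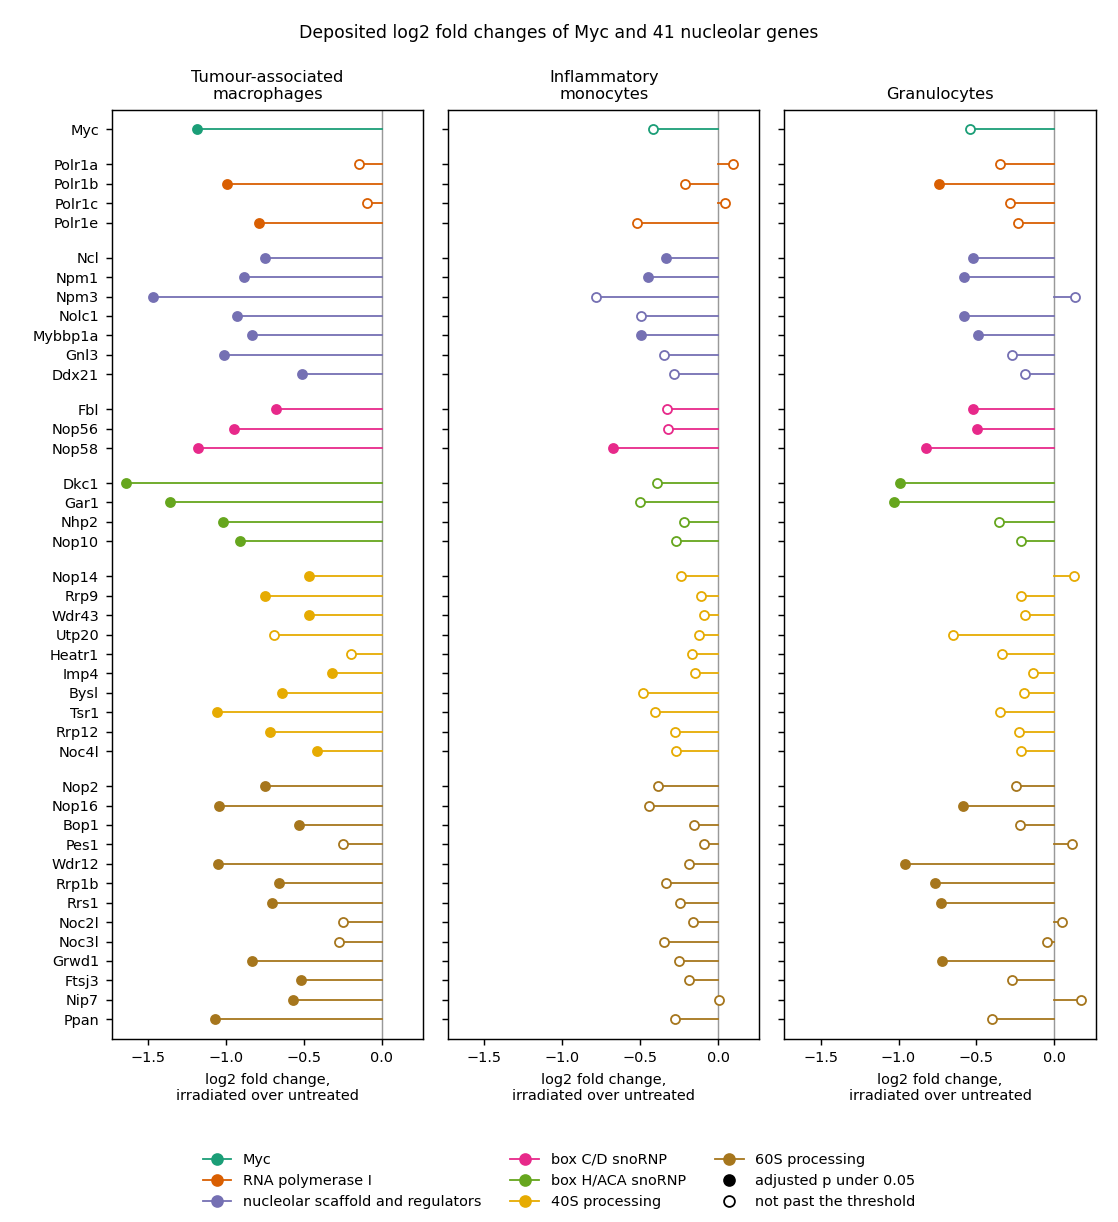
Deposited log2 fold changes (irradiated over untreated, x axis) of the 42 members (y axis, grouped by role) in TAM, inflammatory monocytes and granulocytes. Filled points passed an adjusted p under 0.05 (35, 4 and 15 members in that order), open points did not, and no point lies right of 0 in TAM.

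The hexamer CACGTG, the E-box that MYC and MAX bind, was looked for in the promoters of the members. RefSeq promoter windows of build GRCm38.p6 (250 bases before to 50 after a start site) were used for 36 of the 42 members, and 8 of these, 22.2%, held CACGTG. No window was used for Myc, Npm1, Fbl, Rrs1, Bop1 and Rrp12. The hexamer reads the same on both strands. It was present for 8.09% of all 27025 genes with a window of the same length, for 11.2% of the 11375 of them tested in TAM and for 13.5% of the 1618 that fell in TAM. Member windows had a median GC content of 57.8%, against 52.7% over all windows, and the part of base composition in this share was not tested. Of the 29 members with a window that fell in TAM 6 held the hexamer, and of the 7 that did not pass 2 did. The 8 were Mybbp1a, Nop2, Imp4, Grwd1, Tsr1, Wdr43, Utp20 and Pes1. The 4 with the smallest p in TAM are printed to show where the hexamer, in capitals, sits. It begins 41 bases into the transcribed part for Mybbp1a (chr11:72441077-72441376, plus strand) and 35 bases into it for Grwd1 (chr7:45830740-45831039, minus strand). For Nop2 (chr6:125131633-125131932, plus strand) it begins 60 bases before the start, and for Imp4 (chr1:34439579-34439878, plus strand) 121 bases before. A match is a description of these letters and no evidence of binding.
Mybbp1a: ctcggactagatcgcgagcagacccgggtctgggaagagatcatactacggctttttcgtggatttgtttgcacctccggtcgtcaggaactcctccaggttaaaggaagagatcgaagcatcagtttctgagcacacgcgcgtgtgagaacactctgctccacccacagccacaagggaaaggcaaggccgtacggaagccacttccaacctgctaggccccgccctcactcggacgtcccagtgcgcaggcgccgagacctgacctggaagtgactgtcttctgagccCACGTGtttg
Nop2: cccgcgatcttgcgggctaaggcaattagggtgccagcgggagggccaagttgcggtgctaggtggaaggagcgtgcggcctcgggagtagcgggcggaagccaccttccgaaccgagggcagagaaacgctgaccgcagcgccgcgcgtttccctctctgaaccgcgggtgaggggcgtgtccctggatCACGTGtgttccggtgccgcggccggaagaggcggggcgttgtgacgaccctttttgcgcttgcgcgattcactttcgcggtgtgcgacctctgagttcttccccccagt
Imp4: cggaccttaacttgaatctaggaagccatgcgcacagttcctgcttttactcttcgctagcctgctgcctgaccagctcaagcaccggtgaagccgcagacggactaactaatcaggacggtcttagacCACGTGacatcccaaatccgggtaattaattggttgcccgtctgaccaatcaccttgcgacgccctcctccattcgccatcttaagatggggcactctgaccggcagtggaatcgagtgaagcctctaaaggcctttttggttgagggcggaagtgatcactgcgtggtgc
Grwd1: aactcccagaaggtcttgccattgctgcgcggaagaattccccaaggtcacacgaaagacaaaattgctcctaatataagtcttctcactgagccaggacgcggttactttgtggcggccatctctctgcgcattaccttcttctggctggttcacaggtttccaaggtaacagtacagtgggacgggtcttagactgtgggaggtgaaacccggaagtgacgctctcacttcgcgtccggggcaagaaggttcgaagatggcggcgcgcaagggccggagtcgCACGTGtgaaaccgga

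Myc fell in TAM. Per the authors' deposited table, its log2 fold change was -1.19, or 0.439 times the untreated level (adjusted p = 5.0e-06, Wald statistic -5.20). Only 2.30% of the genes tested in TAM had a lower Wald statistic. In granulocytes the log2 fold change of Myc was -0.54 (adjusted p = 0.12) and in inflammatory monocytes -0.42 (adjusted p = 0.31) in the authors' deposited tables, neither of which passed.

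Of 4 RNA polymerase I subunits 2 fell in TAM, where 12.5% of all genes tested fell. All 4 had a negative Wald statistic there, and differences between the subunits were not tested. Polr1b, the second largest subunit of the enzyme, fell at a log2 fold change of -0.99 (adjusted p = 0.00043), and Polr1e, the subunit known as PAF53, fell with -0.79 (adjusted p = 0.00051) in the authors' deposited table. Polr1a, the largest and catalytic subunit, had -0.15 (adjusted p = 0.71), and Polr1c, which RNA polymerase III also uses, had -0.10 (adjusted p = 0.70) in the same table. Polr1b also fell in granulocytes (log2 fold change -0.74, adjusted p = 0.038 in the authors' deposited table), and no subunit passed in inflammatory monocytes.

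All 7 nucleolar scaffold and regulator genes fell in TAM, where 12.5% of all genes tested fell. Ncl encodes nucleolin, an abundant RNA-binding protein of the nucleolus, and had the highest mean normalised count of the members (3995.4). In the authors' deposited table its log2 fold change was -0.75 (adjusted p = 3.8e-10, Wald statistic -6.95). Npm1, which encodes the chaperone nucleophosmin, had -0.88 (adjusted p = 7.7e-10, Wald statistic -6.83) per the authors' deposited table, and is a gene with many processed copies in the genome, between which the authors' counting may have divided reads. Npm3, a smaller relative of nucleophosmin with the lowest mean count of the members (74.1), had the larger log2 fold change of -1.47 but a Wald statistic of -4.29 in the authors' deposited table. The remaining members were Gnl3, which encodes the GTP-binding protein nucleostemin (log2 fold change -1.01), Nolc1, a chaperone of snoRNPs (-0.93), Mybbp1a, which binds RNA polymerase I and pre-rRNA (-0.84), and Ddx21, an RNA helicase (-0.51), in the authors' deposited table. Ddx21 had the weakest call of this set (adjusted p = 0.024).

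Genes of the snoRNP core proteins fell in TAM without exception among the 7 members, where 12.5% of all genes tested fell. The box H/ACA particle, which turns uridine into pseudouridine, held the 2 members that were lowest among box proteins. Dkc1, the pseudouridine synthase dyskerin, had the lowest fold and the lowest Wald statistic of all 42 members. Its log2 fold change was -1.64, or 0.320 times the untreated level (adjusted p = 4.4e-12, Wald statistic -7.62), in the authors' deposited table. Gar1 had -1.36, Nhp2 -1.02 and Nop10, the smallest protein of the particle, -0.91, with adjusted p-values of 1.8e-06, 1.3e-08 and 1.3e-07 in the authors' deposited table. In the box C/D particle, which adds methyl groups to ribose, the log2 fold change was -1.18 for Nop58 and -0.95 for Nop56, the paired scaffold proteins, and -0.68 for Fbl, the methyltransferase fibrillarin, in the authors' deposited table.

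For factors of the 40S subunit, 8 of 10 members fell in TAM with a median log2 fold change of -0.56, where 12.5% of all genes tested fell. Tsr1, a late maturation factor, had -1.05 (adjusted p = 0.00033), and Rrp9, a protein specific to the U3 particle, -0.75 (adjusted p = 3.3e-05) in the authors' deposited table. Rrp12 (-0.72), Bysl, which encodes bystin (-0.64), Nop14 (-0.47), Wdr43 (-0.47) and Noc4l, a partner of Nop14 (-0.42), fell by less in the authors' deposited table. Imp4, a U3-associated protein, had a fold nearer to 0, -0.32, beside a Wald statistic of -4.49 (adjusted p = 0.00010) in the authors' deposited table. Utp20 and Heatr1, long scaffold proteins of the early precursor, did not pass, with log2 fold changes of -0.69 (adjusted p = 0.071) and -0.20 (adjusted p = 0.49) in the authors' deposited table.

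Factors of the 60S subunit gave 10 of 13 members that fell in TAM, with a median log2 fold change of -0.66, where 12.5% of all genes tested fell. The lowest folds in the authors' deposited table were -1.07 for Ppan, -1.05 for Wdr12 and -1.04 for Nop16, with adjusted p-values of 1.0e-06, 4.4e-07 and 9.6e-09. Wdr12 works in a complex with Bop1 and Pes1, and the 3 had unequal folds. Bop1 fell with a log2 fold change of -0.53 (adjusted p = 0.00016), while Pes1 had -0.25 (adjusted p = 0.089) and did not pass in the authors' deposited table. Grwd1 (-0.83), Nop2, an rRNA cytosine methyltransferase (-0.75), Rrs1 (-0.70), Rrp1b (-0.66), Nip7 (-0.57) and Ftsj3, an rRNA methyltransferase (-0.52), fell as well in the authors' deposited table. Noc2l (-0.25, adjusted p = 0.10) and Noc3l (-0.27, adjusted p = 0.44), whose relatives form a complex in yeast, did not pass in the authors' deposited table. The 7 members without a call in TAM had a median mean count of 448.3, against 566.3 for the 35 that fell.

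Scaling the TAM statistics to an empirical null ended the calls of all genes, those of the members among them, so its count of 0 cannot set the members apart from other genes. After division by 2.72, their robust SD over genes whose mean count reached 50, 0 of 42 members and 0 of all genes passed, and 12 members were lower at an unadjusted p under 0.05, where 2.1% of all genes were.

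**Figure D2:**
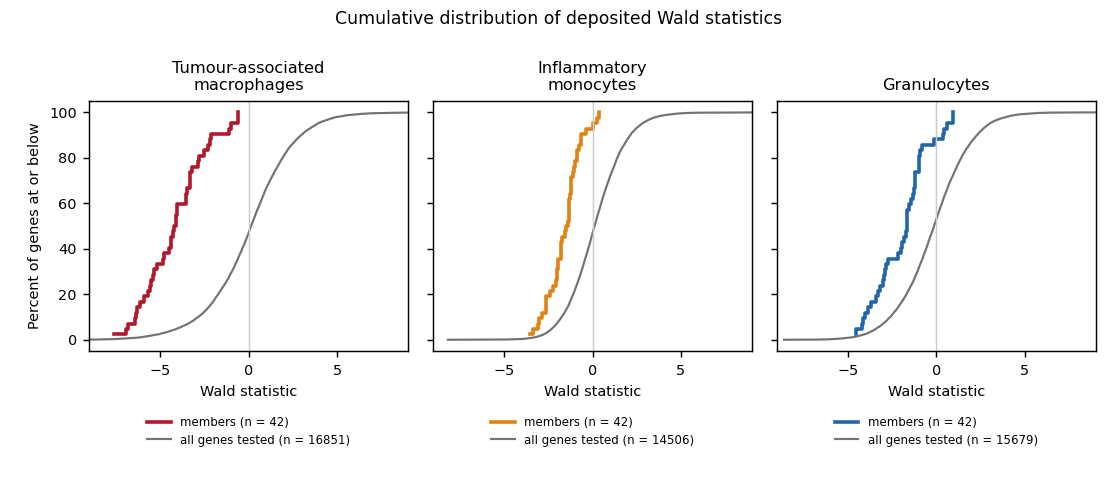
Cumulative percent of genes (y axis) at or below each deposited Wald statistic (x axis) for the 42 members, as stepped coloured lines, and for all genes tested, as grey lines, in the 3 subsets. From the lowest member upward, the members' line lies left of the grey line in every panel. Only other genes lie below the lowest member of each panel. At the median the members' line lies farthest left in TAM, where the median was -4.16.

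In granulocytes, the 15 members that fell came from 5 of the 7 roles. All 3 box C/D genes fell, 2 of 4 box H/ACA genes, 4 of 7 scaffold and regulator genes, 5 of 13 60S factors and 1 of 4 polymerase subunits, and 0 of 10 40S factors passed. Of all genes tested 9.9% fell there, and the differences between roles were not tested. The lowest fold was that of Gar1 (log2 fold change -1.03, adjusted p = 0.0038), next to Dkc1 with -0.99 (adjusted p = 0.00073) in the authors' deposited table. Wdr12 (-0.96, adjusted p = 0.00024) and Ncl (-0.53, adjusted p = 0.00023) had the lowest Wald statistics, -4.53 and -4.54, in the authors' deposited table. Nop58 (-0.83), Rrp1b (-0.76), Rrs1 (-0.73), Grwd1 (-0.72), Nop16 (-0.59), Nolc1 (-0.58), Npm1 (-0.58), Fbl (-0.52), Nop56 (-0.50) and Mybbp1a (-0.49) complete the members that fell, beside Polr1b, with log2 fold changes from the authors' deposited table.

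Of the 27 members that did not pass in granulocytes, 5 had a positive Wald statistic. They were Npm3, Nop14, Pes1, Noc2l and Nip7, with log2 fold changes between 0.05 and 0.17 in the authors' deposited table. Nip7, at 0.17 (adjusted p = 0.57), was the highest, and it had fallen in TAM. The median log2 fold change over the 42 members was -0.34 in granulocytes, against -0.03 over all genes tested. After division by the robust SD of 2.09, 0 of 42 members and 0 of all genes passed. At an unadjusted p under 0.05, 4 members were then lower, where 2.32% of all genes were. At an adjusted p under 0.01 without that division, 8 members remained, where 5.41% of all genes tested fell.

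In inflammatory monocytes, most members had negative folds that did not pass. The 4 that fell were Nop58 (log2 fold change -0.67, adjusted p = 0.014), Npm1 (-0.45, adjusted p = 0.021), Mybbp1a (-0.50, adjusted p = 0.039) and Ncl (-0.33, adjusted p = 0.047) in the authors' deposited table. Among the 38 others, Nolc1 came nearest the threshold (-0.49, adjusted p = 0.061), and Npm3 had the lowest fold of all 42 (-0.78, adjusted p = 0.19) in the authors' deposited table. A negative Wald statistic was found for 39 of 42 members, against 46.8% of all genes tested, and the exceptions were Polr1a, Polr1c and Nip7. The median log2 fold change of the members was -0.28, against 0.02 over all genes tested. The count of 4 is not firm. It was 0 at an adjusted p under 0.01 and 8 under 0.1, where 0.634% and 3.09% of all genes tested fell. With p-values adjusted over every gene it was 2, where 0.46% of those genes fell. Where a fold of 0.5 or more on the log2 scale was also asked for, it was 1, beside 1.19% of all genes tested. After division by the robust SD it was 0, while of all genes tested 5 were lower and 20 higher. At an unadjusted p under 0.05 after that division 3 members were lower, where 1.45% of all genes were.

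Set side by side, every member that fell in granulocytes or inflammatory monocytes also fell in TAM. Ncl, Npm1, Mybbp1a and Nop58 fell in all 3 subsets, 11 members fell in TAM and granulocytes alone, 20 passed in TAM alone, and 7 passed in none. The 15 members that fell in granulocytes are 100% of the calls there and 42.9% of the 35 in TAM. For inflammatory monocytes the 4 are 100% of the calls there and 11.4% of those in TAM. Among the 9023 genes in the members' count range, a background chosen after seeing the data, 47.4% of the genes that fell in granulocytes and 66.0% of those that fell in inflammatory monocytes also fell in TAM, which are 29.1% and 8.08% of the genes that fell in TAM. The fold was lowest in TAM for 36 of 42 members, in granulocytes for 5 and in inflammatory monocytes for 1, which is 85.7%, 11.9% and 2.38% of the members, where the shares were 41.8%, 33.5% and 24.7% of the genes in that count range. These differences from the background were not tested. Wald statistics of all genes spread more widely in TAM (robust SD 2.72) than in inflammatory monocytes (1.56) and granulocytes (2.09). Among members with an absolute Wald statistic of at least 1, the ratio of fold to Wald statistic, which would be the standard error if folds were unshrunken, had medians of 0.18 (TAM), 0.19 (inflammatory monocytes) and 0.18 (granulocytes). The number of irradiated libraries differed (10, 9 and 7), as did the number of genes tested. Whether a member's fold differed in size between subsets was not tested, since the tables hold no standard errors. The Wald signs of TAM and inflammatory monocytes differed for 3 members, those of TAM and granulocytes for 5, and those of inflammatory monocytes and granulocytes for 6. A test of opposite directions took the larger p of such a pair, adjusted over all genes tested in both. The smallest of these p-values among the members were 0.70, 0.34 and 0.44 before adjustment, and as no member rose in any subset, the test could call none of them. Among all genes it called 0% for TAM and inflammatory monocytes, 0.0957% for TAM and granulocytes, and 0% for inflammatory monocytes and granulocytes.

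Other genes of the pathway, taken from lists that do not include the members, fell in part in TAM. Of 46 other factors of the 40S subunit, 20 fell and 0 rose, led by Emg1, an rRNA methyltransferase (log2 fold change -0.73), Tbl3 (-0.70), Nat10, an RNA cytidine acetyltransferase (-0.85), and Imp3 (-0.67) in the authors' deposited table. For the 60S subunit, 22 of 47 other factors fell and 2 rose, and Nifk (-0.73), Rsl1d1 (-0.68), Brix1 (-0.66) and Rrp15 (-0.85) had the smallest p in the authors' deposited table. Of 11 snoRNP assembly genes 7 fell, among them Snu13, which binds box C/D RNA (-0.57), and Ruvbl1, an ATPase of the assembly machinery (-0.83), and of 13 tested genes of the RNA exosome, which trims rRNA ends, 7 fell, with -0.87 for Exosc8 in the authors' deposited table. Of 13 further RNA polymerase I and rDNA factors 1 fell (Polr1d, -0.42) and 1 rose (Ttf1, the terminator of rRNA gene transcription, 0.53) in the authors' deposited table. That is 7.69% each way, below the 12.5% of all genes tested that fell in TAM and the 13.9% that rose. By contrast, 43.5% of the other 40S factors, 46.8% of the other 60S factors, 63.6% of the assembly genes and 53.8% of the exosome genes fell in TAM. In granulocytes 8 of 46 other 40S factors, 6 of 47 other 60S factors, 4 of 11 snoRNP assembly genes and 1 of 13 exosome genes fell, and Taf1b (0.55) and Taf1c (0.59), subunits of the factor that places polymerase I on its promoter, rose in the authors' deposited table. As shares, 17.4% of the other 40S factors, 12.8% of the other 60S factors, 36.4% of the assembly genes and 7.69% of the exosome genes fell there, beside 9.9% of all genes tested. The other 40S, other 60S and exosome lists had median log2 fold changes of -0.07, -0.01 and -0.07 in granulocytes, beside -0.03 over all genes tested, and 51.1% of the other 60S factors had a negative Wald statistic, beside 53.1% of all genes tested. In inflammatory monocytes 1 of these genes fell (Sdad1, -0.48) and 1 rose (Ddx24, 0.28), in the authors' deposited table. Both are other 60S factors, of which 2.13% fell and 2.13% rose, beside 1.77% and 4.13% of all genes tested.

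**Figure D3:**
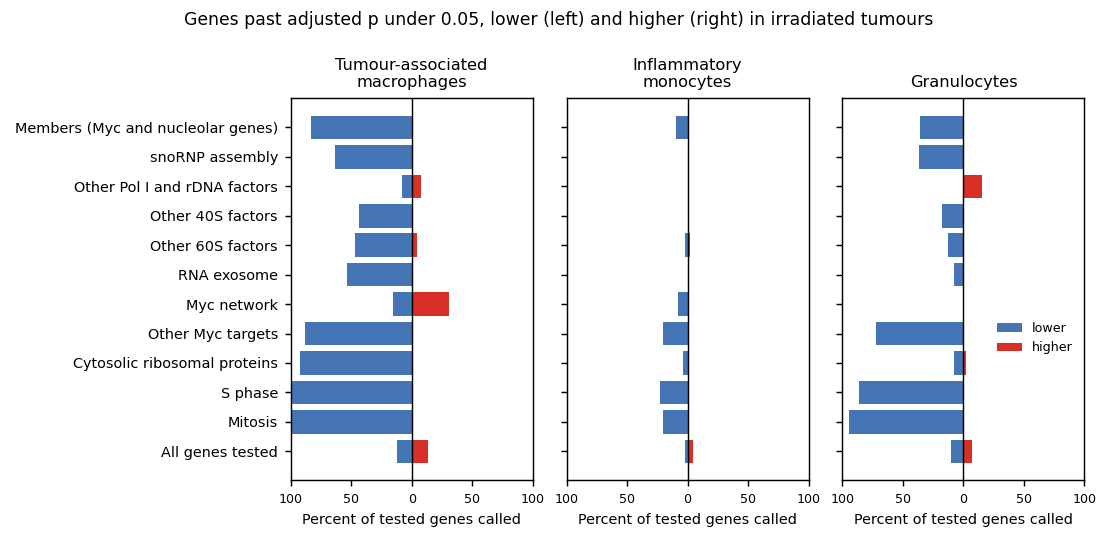
Percent of tested genes called lower (blue, left) and higher (red, right) at an adjusted p under 0.05 for the members, 10 other gene lists and all genes tested, in the 3 subsets. In TAM 83.3% of the members were lower and none was higher, against 12.5% lower and 13.9% higher over all genes tested.

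Known MYC targets outside ribosome biogenesis fell in 22 of 25 cases in TAM and none rose, with a median log2 fold change of -0.94. Srm, which encodes spermidine synthase, had -1.61, Pa2g4 -1.20, Ranbp1, a regulator of nuclear transport, -1.10 and the cell cycle kinase gene Cdk4 -0.97 in the authors' deposited table. In granulocytes 18 of 25 fell and none rose, with -1.35 for Srm, -1.26 for Shmt2, a mitochondrial enzyme of folate metabolism, and -0.69 for Ldha, lactate dehydrogenase, in the authors' deposited table. Inflammatory monocytes had 5 of 25 that fell, among them Mthfd2, another mitochondrial folate enzyme (-0.74), and Eif4e, the cap-binding translation factor (-0.40), in the authors' deposited table. These counts are 88%, 72% and 20% of the list in TAM, granulocytes and inflammatory monocytes, in that order. Of all genes tested 12.5%, 9.9% and 1.77% fell there.

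In the MYC network itself, 4 of 13 tested genes rose and 2 fell in TAM. These are 30.8% and 15.4% of the list, beside 13.9% and 12.5% of all genes tested, so the share that fell lay near that of all genes. Mxd1, whose protein pairs with MAX and opposes MYC, had the highest mean normalised count of the network genes (62058.1). It rose with a log2 fold change of 1.69 (adjusted p = 3.0e-12, Wald statistic 7.68) in the authors' deposited table. Mxi1, another MAX partner of that family, had 0.55 (adjusted p = 0.0096), Mlxip, a glucose-sensing relative, 0.43 (adjusted p = 0.010) and Fbxw7, part of a ubiquitin ligase that degrades MYC, 0.53 (adjusted p = 0.026) in the authors' deposited table. Mxd3, a family member linked to dividing cells, fell with -2.07 (adjusted p = 0.0010) and Mycn with -2.01 at a mean count of only 36.5 (adjusted p = 0.022) in the authors' deposited table. Max had -0.30 (adjusted p = 0.56) there. In inflammatory monocytes Mxi1 fell instead, with a log2 fold change of -0.97 (adjusted p = 2.0e-05, Wald statistic -5.38) in the authors' deposited table. The difference in direction of Mxi1 between TAM and inflammatory monocytes had an unadjusted p of 0.0016 but an adjusted p of 1 over all genes tested in both. In granulocytes none of the 13 network genes passed, where Mxd1 had -0.46 (adjusted p = 0.16) in the authors' deposited table. Of 12 neutrophil markers 10 also rose in TAM by Wald statistic, and the part of other cell types in the rise of Mxd1 there was not tested.

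**Figure D4:**
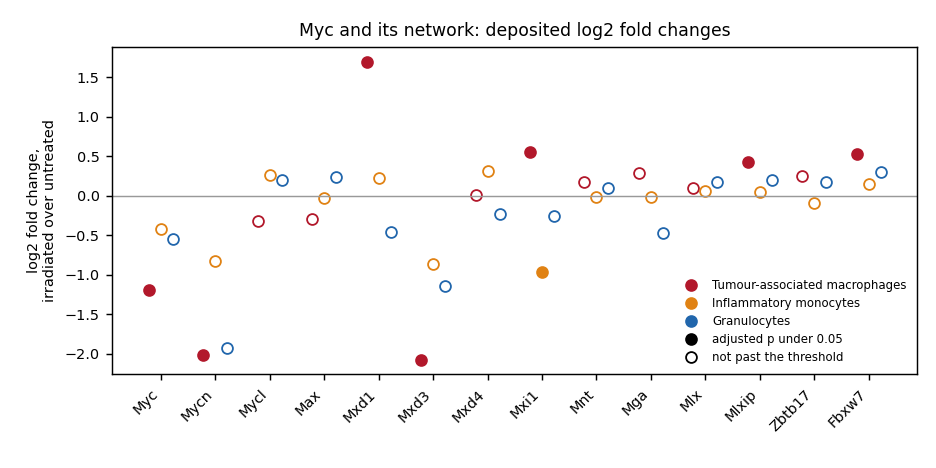
Deposited log2 fold changes (y axis) of Myc and 13 genes of its network (x axis) in TAM (red), inflammatory monocytes (orange) and granulocytes (blue). Filled points passed an adjusted p under 0.05, among them Mxd1 at 1.69 and Myc at -1.19 in TAM, and Mxi1 at 0.55 in TAM and -0.97 in inflammatory monocytes.

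Genes of the cell cycle fell beside the members in all 3 subsets, with the smallest share in inflammatory monocytes, while ribosomal protein genes did so mainly in TAM. In TAM all 22 S phase genes and all 20 mitosis genes fell, with median log2 fold changes of -1.92 and -2.60, so that the members' median of -0.75 was nearer to 0. In granulocytes 19 of 22 and 19 of 20 fell (medians -1.39 and -2.27), and in inflammatory monocytes 5 of 22 and 4 of 20 (medians -0.53 and -1.34). For inflammatory monocytes these are 22.7% and 20% of the lists, beside 9.52% of the members and 1.77% of all genes tested. Over all genes tested 12.5% fell in TAM and 9.9% in granulocytes. Cytosolic ribosomal protein genes fell in 50 of 54 cases in TAM (median -0.58), 4 of 53 in granulocytes (median -0.18, with 1 that rose) and 2 of 53 in inflammatory monocytes (median -0.23). In granulocytes that is 7.55% of the ribosomal protein genes, beside 35.7% of the members and 9.9% of all genes tested, and in inflammatory monocytes 3.77%, beside 9.52% of the members and 1.77% of all genes tested. The part of these groups in the members' calls was not tested.

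Several markers of other cell types also differed between irradiated and untreated tumours, and their part in the members' calls was not tested. Of all genes tested 13.9% rose and 12.5% fell in TAM. In inflammatory monocytes 4.13% rose and 1.77% fell, and in granulocytes 7.32% rose and 9.9% fell. In TAM 10 of 12 neutrophil markers, 5 of 8 monocyte markers and 4 of 5 tested eosinophil markers had risen by Wald statistic, while 4 of 8 dendritic cell markers and 3 of 7 fibroblast markers fell. Among them were Csf3r, the neutrophil growth factor receptor (log2 fold change 1.36), and Ly6c2, a monocyte surface protein (1.96), in the authors' deposited table. For 6 of the 12 neutrophil markers, Ngp among them (Wald statistic 9.20, log2 fold change -0.59), fold and Wald statistic have different signs in the authors' deposited table. In inflammatory monocytes 8 of 9 macrophage markers and 7 of 12 neutrophil markers rose, with Mertk, a receptor for dying cells, at 1.91 and S100a8 at 2.77 in the authors' deposited table. In granulocytes 4 of 9 macrophage and 3 of 8 monocyte markers rose and 1 of 12 neutrophil markers did, while 3 of 7 fibroblast markers fell, the receptor gene Pdgfrb with -2.13 and the collagen genes Col3a1 with -2.05 and Col1a1 with -1.98 in the authors' deposited table. Of 5 tested eosinophil markers 1 rose in granulocytes (Prg2, 1.87) and 2 rose in inflammatory monocytes (Prg2, 2.82, and Ccr3, 1.88), in the authors' deposited tables. Of 5 tested neutrophil progenitor markers 1 rose in TAM and 1 in granulocytes, Prtn3 in each case. Of 8 epithelial and tumour cell markers 1 rose in TAM (Cdh1, 0.99) and 0 passed elsewhere, and of 5 erythroid markers 0 passed in any subset, in the authors' deposited tables. The epithelial share in TAM, 12.5%, and the neutrophil share in granulocytes, 8.33%, lay near those of all genes. In TAM 2 of 9 macrophage markers (Mertk and Apoe) and 1 of 3 tested endothelial markers (Pecam1) also rose. Of 8 T and NK cell markers 1 fell in TAM (Cd3e) and 1 in granulocytes (Klrb1c). Among tested B and plasma cell markers 1 fell in TAM (Ighm), 1 rose in inflammatory monocytes (Cd79a) and 1 rose in granulocytes (Pax5).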

How the data were processed

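RNA of sorted myeloid subsets was sequenced. Per the labels' protocols, the RNA came from RNeasy columns and libraries were built from picograms of cDNA by Nextera XT, a preparation that does not mark strand, so genes that overlap on opposite strands may share reads. Per the submitters' processing notes, DESeq2 1.28.1 in R 4.0.2 was used, beside STAR 2.7.6a and fastp 0.20.1, on mm39 (GRCm39). How reads were counted and which model was fitted is not given in the sources used here.

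The authors deposited 3 tables of comparisons. Mean normalised counts are a deposited signal averaged by the authors, the log2 fold change may have been shrunken by the authors (not stated), the Wald statistic is a score the authors deposited, and the p-values and adjusted p-values are the authors' own. Low-input amplification widens the spread of weakly expressed genes, and shrinkage would pull their folds towards 0.

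Computed here were counts of genes past an adjusted p under 0.05 by the sign of the Wald statistic, medians over lists beside all genes tested, and the test of opposite directions with Benjamini-Hochberg adjustment over all genes tested in both tables. The computations used Python 3.11.15, pandas 2.3.3, numpy 2.4.6, scipy 1.17.1 and matplotlib 3.10.9, and were tested on simulated Wald statistics. Members and lists were chosen with earlier results of these data known. All members could be named, and from other lists up to 4 called genes with the smallest p, or up to 2 with the highest mean where none passed. Fbxw7, Mycn and Max were outside that rule and were chosen after their values were seen. Alternatives were other thresholds, adjustment over every gene, a fold or count minimum, direction from the fold, an empirical null and re-centring.

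Promoter windows are from RefSeq on GRCm38.p6, an earlier build than that of the tables, matched by symbol. Nothing in the labels says that libraries of a group came from repeated preparations, and tumour numbers differ within a group. Depth per library is unknown, so no counting interval is given.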

Additional observations from a re-analysis of the deposited data

How the results depend on the processing

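No paired analysis was possible because irradiated and untreated libraries of a subset share no tumour number; leaving out libraries was not run, since the tables hold comparisons only. Division by the robust SD (2.72 in TAM, 1.56 in inflammatory monocytes, 2.09 in granulocytes) left 0 members and 0 of the 169 genes on the 7 other pathway lists called lower in every subset, because it scales down every statistic. In TAM the count of members that fell was otherwise between 31 and 37, and that of the pathway lists between 58 and 90 (81 as reported). Over those settings between 5.72% and 18.5% of all genes fell. In granulocytes, an adjusted p under 0.01 gave 8 members and 22 pathway genes in place of 15 and 37, where 5.41% of all genes tested fell. For inflammatory monocytes, members and pathway genes that fell (4 and 7 as reported) came to 0 and 3 at an adjusted p under 0.01, 8 and 12 under 0.1, 2 and 4 when every gene with a p entered the adjustment, and 1 and 4 with a minimum fold. Of all genes, 0.634%, 3.09%, 0.46% and 1.19% fell under those settings, in that order. No member called in a subset changed direction, and no member rose, under direction from the fold, subtraction of the median Wald statistic or any other alternative run. Subtracting the median Wald statistic (0.24 in TAM, over genes whose mean count reached 50) gave 2460 lower and 1989 higher genes in TAM in place of 2108 and 2340, and 36 members that fell. With unknown depth, it cannot be said how small a fold of a weakly counted member such as Npm3 was detectable.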

Other observations

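The order of the members' folds was compared between subsets, as a description. Over the 42 members, Pearson's r of the deposited log2 fold changes was 0.68 between TAM and inflammatory monocytes (Spearman's rho 0.64), 0.54 between TAM and granulocytes (rho 0.55) and 0.25 between inflammatory monocytes and granulocytes (rho 0.31). Over the 9023 genes tested in each pair whose mean count lay in the members' range, r was 0.57, 0.56 and 0.61 and rho 0.44, 0.39 and 0.51 in that order of pairs. Between TAM and granulocytes the members' r lay close to that of these genes and their rho above it, and between inflammatory monocytes and granulocytes both lay below, without a test. These points are genes and not replicates, and the subsets share tumours, so no p is given. The widest gaps in fold between inflammatory monocytes and granulocytes were those of Npm3 and Wdr12. In the authors' deposited tables Npm3 had log2 fold changes of -0.78 in inflammatory monocytes and 0.13 in granulocytes, and Wdr12 -0.19 and -0.96. Npm3, with the lowest mean count of the members (74.1), passed in neither subset (adjusted p = 0.19 and 0.85 in the authors' deposited Wald test). Wdr12 passed in granulocytes (adjusted p = 0.00024) but not in inflammatory monocytes (adjusted p = 0.65) in that test. Both genes were chosen after their values were seen, and the difference was not tested.

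Within the complex of Pes1, Bop1 and Wdr12, the deposited log2 fold changes were -0.25, -0.53 and -1.05 in TAM and 0.11, -0.22 and -0.96 in granulocytes, in that order of genes, in the authors' deposited tables. Differences between these genes were not tested.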
